A study of Piriqueta cistoides subsp. caroliniana with 18 samples.

Results

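PIP2-6, a plasma membrane aquaporin, and CWINV, a cell wall invertase, were each represented by a single probe, 2 of the 9600 probes on the array. The members were chosen by gene symbol: all probes whose only symbol was PIP2-6 (Gm04796) or CWINV (Gm02590) were taken, of 546 probes with 1 symbol. Both genes were picked with earlier results on these arrays known, so the values are a description, and the p-values below, which come from the fit over all 7880 tested probes, are not independent evidence. Leaf RNA of Piriqueta cistoides subsp. caroliniana came from 18 greenhouse plants raised as cuttings in sand, 3 in each of 6 groups: hybrid after drought and well-watered, the parental morphotype caroliniana after drought and well-watered, and the parental morphotype viridis after drought and well-watered. Drought meant 4 cycles over 36 days, and all plants shared day and night temperatures near 35 and 27 °C and a day length of 12 h. Each plant was hybridised once in Cy5 and once in Cy3 on 18 two-colour arrays that close into 1 loop. Whether plants of a group came from separate parents was not stated. The p-values therefore cover only these plants, through the spread between them and the error between arrays.

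Plasma membrane aquaporins are channel proteins that let water cross the membrane along its gradient. In leaves they carry part of the water that moves through living cells between the veins and the sites of evaporation, and members of the PIP2 group are generally the more active water channels when tested in frog oocytes. Cell wall invertase sits outside the plasma membrane and splits sucrose into glucose and fructose, which cells then take up through hexose carriers. It is best known for unloading sugar into growing organs, and in source leaves its activity competes with the export of sucrose.

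The array carries soybean cDNA clones, so each value reports Piriqueta RNA that hybridised to the soybean sequence. A cDNA clone can also bind transcripts of close relatives of its gene, which matters for PIP2-6 because PIP2 genes form a family of similar sequences. Ratios give no level of RNA, so the labelled leaf tissue could not be checked against marker genes. The deposited values are log ratios whose base and direction are not stated: they are given here in log-ratio units and read as Cy5 over Cy3, and the opposite reading would turn every sign, dye offsets included. Turning any single array raised the residual sum of squares (ratios of 1.02 to 1.37), so no array stood out as turned against the others. Between 5962 and 8134 probes had a value on an array, and the number of arrays limits the precision. The array of viridis drought plant 3 and hybrid drought plant 2 was marked BAD by the submitters, and hybrid well-watered plant 2 stood apart in the earlier results. Values without them are given where they matter.

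PIP2-6 had values on all 18 arrays, from -0.395 through a median of 0.245 to 0.509. CWINV also had a value on every array, from -0.345 through a median of -0.124 to 0.0999. The arrays of PIP2-6 lay further apart, with an SD of 0.273 that exceeded the SD of 82.8% of the tested probes, whereas the SD of CWINV was 0.115 and exceeded that of 13.4%. After groups, dye and plants were fitted, the residual SD was 0.225 for PIP2-6 and 0.0585 for CWINV, against a median of 0.145 over all probes. CWINV was thus among the steadiest probes, with a smaller residual SD in only 1.23% of the others.

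The mean ratio of CWINV differed from 0, which is an offset between the dyes. In a closed loop with every plant once in each dye, the mean over the arrays holds no difference between plants, and for CWINV this mean was -0.119 ± 0.0198 (SE), with 15 of 18 arrays below 0. The offset passed the limma test with Benjamini-Hochberg adjustment over all probes (adjusted p = 3.22e-04), as did the offset of 29.9% of all probes. In a fit of the 5371 complete probes alone, which include both members, 794 passed. For PIP2-6 the mean was 0.128 ± 0.0487, with 12 of 18 arrays above 0, and it did not pass (adjusted p = 0.0594). It did pass without hybrid well-watered plant 2 (0.143, adjusted p = 0.00815) or without viridis well-watered plant 3 (0.173, adjusted p = 0.0152), and with the arrays scaled to equal spread (0.184, adjusted p = 0.0132). In the other direction, it was 0.0799 without caroliniana drought plant 2 (adjusted p = 0.152). Each comparison below uses both orientations.

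**Figure D1:**
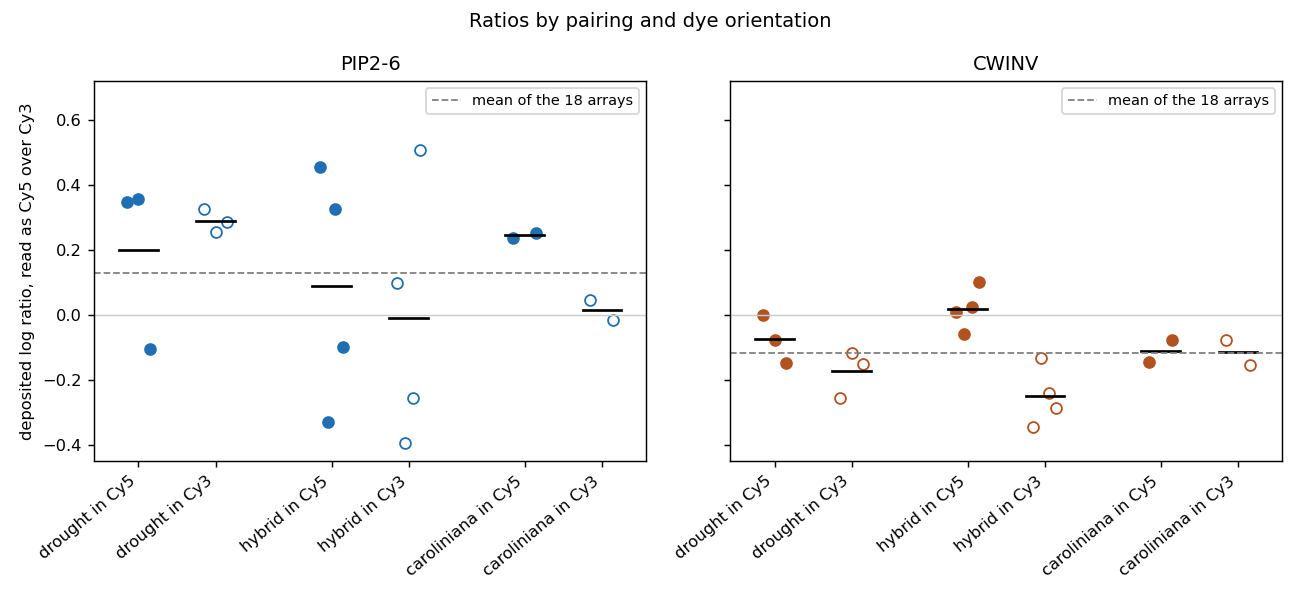
Deposited log ratios of PIP2-6 (left) and CWINV (right) on the 18 arrays, by the kind of pairing and by the dye of the first-named plant. Points are arrays, black bars are means, and the dashed line is the mean of all 18 arrays; the arrays with the hybrid in Cy5 lie above all arrays with the hybrid in Cy3 for CWINV (-0.0606 to 0.0999, against -0.345 to -0.132) and overlap for PIP2-6.

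PIP2-6 showed no drought difference beyond its error. On the arrays with the drought plant in Cy5 its ratio was 0.347 in caroliniana, 0.355 in the hybrid and -0.105 in viridis. On those with the drought plant in Cy3 it was 0.326 in caroliniana, 0.254 in the hybrid and 0.287 in viridis. Ratios of both orientations were mostly positive and overlapped, and after removal of the dye offset 2 of 6 arrays had the drought plant on the positive side.

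The averaged drought effect of PIP2-6 was -0.0154 ± 0.102 (SE), with a 95% interval of -0.231 to 0.200 (adjusted p = 0.978). At base 2 the bounds correspond to a 1.17-fold difference on the negative and a 1.15-fold difference on the positive side, if the values are on that base. Over all probes 1.94% were called, that is, passed an adjusted p of 0.05, and the smallest averaged effect called had a size of 0.189. The sign of the PIP2-6 value was not stable, since leaving out single plants gave -0.117 to 0.0583.

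Within morphotypes the drought effect of PIP2-6 differed in sign but not beyond its error. It was 0.187 ± 0.147 in the hybrid (adjusted p = 0.563), -0.147 ± 0.145 in caroliniana (adjusted p = 0.999) and -0.0864 ± 0.145 in viridis (adjusted p = 0.997). With single plants left out the value in caroliniana ran between -0.317, without its well-watered plant 1, and -0.0573, without hybrid well-watered plant 3. That in viridis ran between -0.162, without its well-watered plant 3, and -0.00952, without its well-watered plant 1. These comparisons called 2.07% of all probes in the hybrid, 0.799% in caroliniana and 0.711% in viridis. The test of a difference between the 3 drought effects gave F = 1.93 for PIP2-6 (adjusted p = 0.998), in a comparison that called 0% of all probes by limma and had 185 with an unadjusted p below 0.05.

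The hybrid value of PIP2-6 depended on single well-watered plants. The well-watered hybrid plants 1, 2 and 3 had plant values of -0.155, 0.594 and -0.462, and the drought plants of the hybrid had 0.468, 0.0729 and 0.243. A plant value is solved from the loop, has the dye offset removed and is centred on 0 over plants. It carries array error shared along the loop. Plant 2 of the well-watered hybrids was the highest of all 18 plants and plant 3 the lowest, so the well-watered group spanned all drought plants.

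Without hybrid well-watered plant 2 the hybrid drought effect of PIP2-6 was 0.407 ± 0.118 and passed the limma test (adjusted p = 0.0351). In the same fit 14.6% of all probes passed, against 2.07% with all plants, so PIP2-6 was 1 of 1150 probes. With viridis drought plant 3 left out as well, the effect was 0.464 ± 0.121 (adjusted p = 0.0281), with 14.3% of all probes called. Without hybrid well-watered plant 3, by contrast, it was 0.0520. As plant 2 was the highest and plant 3 the lowest of the well-watered hybrids, these shifts follow from the plant left out. The test of a difference between morphotypes did not pass without plant 2 (F = 10.2, adjusted p = 0.0702).

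**Figure D2:**
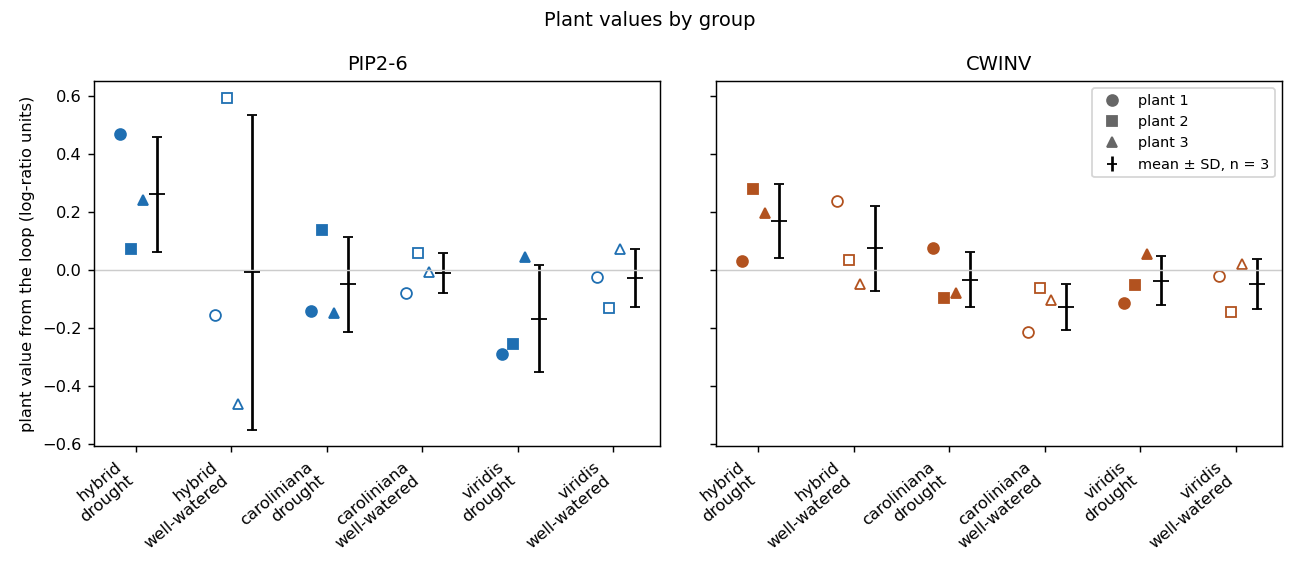
Plant values of PIP2-6 (left) and CWINV (right) in log-ratio units by morphotype and treatment. Symbols mark plants 1, 2 and 3 of each group, filled for drought and open for well-watered, with the mean ± SD (n = 3) beside them; the well-watered hybrid plants of PIP2-6 span -0.462 to 0.594.

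Ordered by their mean plant value, the groups of PIP2-6 ran from hybrid drought (0.261 ± 0.198, SD, n = 3) over hybrid well-watered (-0.00746 ± 0.543), caroliniana well-watered (-0.00968 ± 0.0690), viridis well-watered (-0.0275 ± 0.101) and caroliniana drought (-0.0495 ± 0.163) to viridis drought (-0.167 ± 0.184). The plants of every group overlapped those of its neighbours in this order. The caroliniana drought plants had -0.141, 0.139 and -0.147, and the well-watered ones -0.0807, 0.0572 and -0.00555. In viridis the drought plants had -0.289, -0.256 and 0.0439, and the well-watered plants -0.0237, -0.130 and 0.0716. Drought plants lay apart from well-watered plants in neither parent.

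Between morphotypes PIP2-6 had no called difference either. Caroliniana minus viridis was 0.103 ± 0.108 over both treatments (adjusted p = 0.875), in a comparison with 0% of all probes called and 296 below an unadjusted p of 0.05. The 4 arrays that paired these morphotypes directly had 0.237 and 0.252 with caroliniana in Cy5, against 0.0467 and -0.0149 with caroliniana in Cy3. The orientations did not overlap, which held for 42.0% of the 6896 probes with values on these arrays, so the separation was common on the array. Hybrid minus caroliniana was 0.00357 ± 0.110 and hybrid minus viridis 0.107 ± 0.110 over both treatments (adjusted p = 0.9998 and 0.690).

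Within treatments the PIP2-6 differences of the hybrid changed sign. Under drought the hybrid minus caroliniana was 0.170 ± 0.142 and the hybrid minus viridis 0.244 ± 0.144 (adjusted p = 0.986 and 0.433), while among well-watered plants they were -0.163 ± 0.143 and -0.0296 ± 0.141 (adjusted p = 0.9996 for both). On the 8 arrays with a hybrid and a parent, PIP2-6 had 0.456, -0.329, 0.327 and -0.0987 with the hybrid in Cy5, against 0.0986, -0.395, -0.256 and 0.509 with the hybrid in Cy3. These orientations overlapped over nearly their whole range. Caroliniana minus viridis was 0.0734 ± 0.140 under drought and 0.134 ± 0.141 in well-watered plants, also uncalled (adjusted p = 0.9896 and 0.982).

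PIP2-6 moved with a pattern that ran through the whole array. The first principal component of the residuals held 39.7% of their variance over 5371 complete probes. The residuals of PIP2-6 correlated with it at r = 0.912 over 18 arrays, more closely than 97.9% of these probes, whose median size of r was 0.544. For CWINV r was -0.124. The arrays share plants, so this is a description of them. Both arrays of hybrid well-watered plant 2 lay at the ends of this component, with PIP2-6 ratios of 0.254 where the plant was in Cy5 and -0.395 where it was in Cy3. With the component as a covariate, a choice made after the data were seen, no PIP2-6 comparison between groups passed, and the smallest adjusted p was 0.0528.

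**Figure D3:**
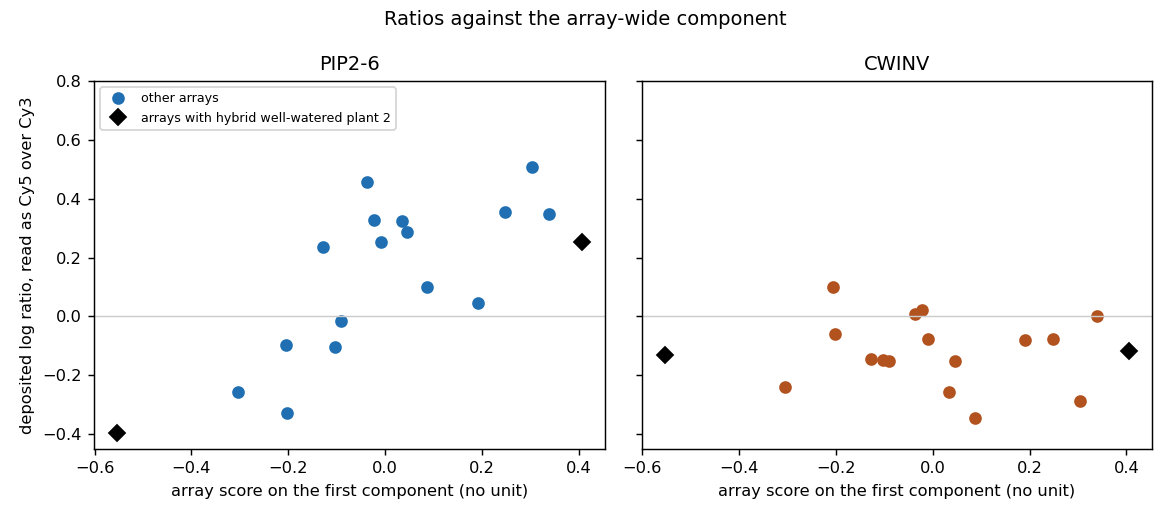
Log ratios of PIP2-6 (left) and CWINV (right) on the 18 arrays, on the y axis, against the score of each array on the first component of the residuals over all complete probes, on the x axis. Black diamonds mark the arrays with hybrid well-watered plant 2; the points of PIP2-6 rise along the component (r = 0.751 for the ratios) and those of CWINV do not (r = -0.0605).

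CWINV had no called difference between drought and well-watered plants. Its ratio was -1.34e-04 in caroliniana, -0.0764 in the hybrid and -0.148 in viridis with the drought plant in Cy5. With the drought plant in Cy3 it was -0.255 in caroliniana, -0.116 in the hybrid and -0.152 in viridis. The orientations overlapped, and 4 of 6 arrays had the drought plant on the positive side once the dye offset was removed.

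The averaged drought effect of CWINV was 0.0437 ± 0.0414 with a 95% interval of -0.0440 to 0.131 (adjusted p = 0.799). The upper bound is a 1.10-fold difference at base 2. Within morphotypes it was 0.0490 ± 0.0597 in the hybrid, 0.0739 ± 0.0590 in caroliniana and 0.00828 ± 0.0592 in viridis (adjusted p = 0.724, 0.999 and 0.997). The test of a difference between these 3 effects did not pass (F = 0.407, adjusted p = 0.998). The narrow intervals follow from the small residual SD of this probe: that of the hybrid ended at 0.175, below the smallest effect called in that comparison, 0.261.

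**Figure D4:**
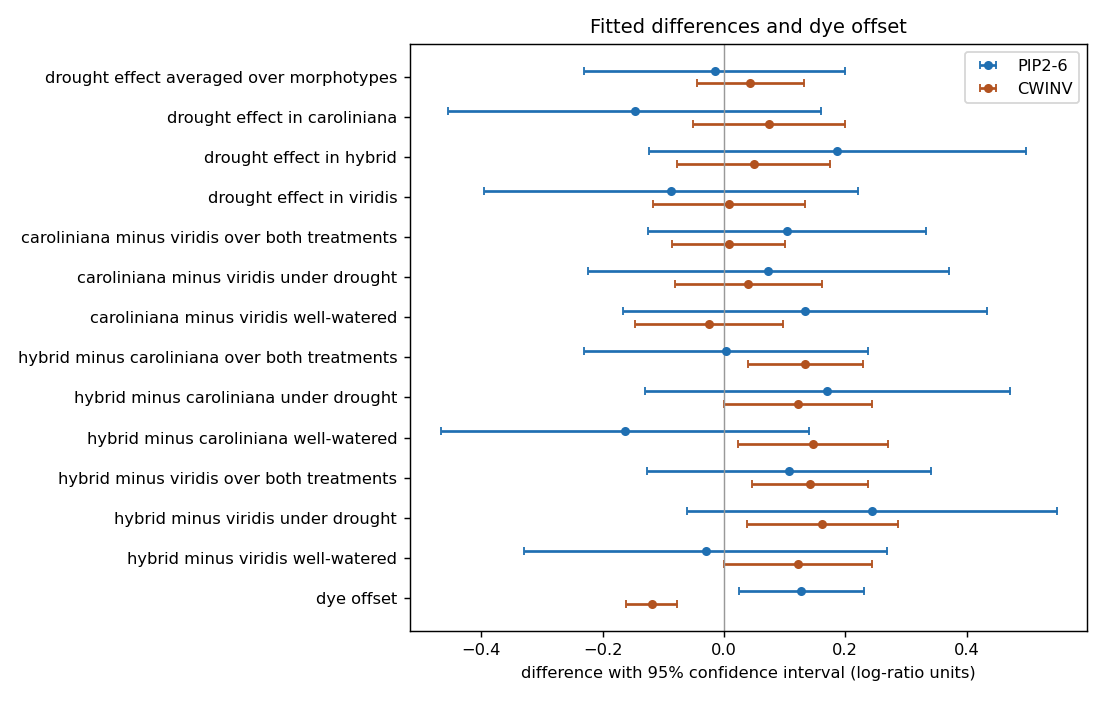
Fitted differences of PIP2-6 and CWINV, and their dye offsets, in log-ratio units on the x axis; points are estimates and bars 95% confidence intervals. The intervals of CWINV are narrower, and those of the hybrid against each parent over both treatments lie above 0 (0.0392 to 0.230 and 0.0467 to 0.237).

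On the reading Cy5 over Cy3 and with the dye offset removed, the hybrid lay on the positive side for CWINV on every array that paired it with a parent. The difference did not pass the test over all probes. On the 4 arrays with the hybrid in Cy5 the ratio was 0.00859 for drought plants of hybrid and caroliniana, -0.0606 for well-watered plants of the same morphotypes, 0.0232 for drought plants of hybrid and viridis and 0.0999 for well-watered plants of hybrid and viridis. On the 4 arrays with the hybrid in Cy3 it was -0.240 and -0.287 against caroliniana drought and well-watered plants, and -0.345 and -0.132 against viridis drought and well-watered plants. All ratios with the hybrid in Cy5 lay above all ratios with the hybrid in Cy3. Of 5684 probes with values on these 8 arrays, 2.39% did not overlap in one direction or the other. With the dye offset removed, 8 of 8 arrays had the hybrid on the positive side, by 0.0135 to 0.226. The smallest of these values is below the SE of the offset (0.0198), and the arrays share plants.

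Over both treatments, hybrid minus caroliniana was 0.134 ± 0.0449 for CWINV with a 95% interval of 0.0392 to 0.230, and hybrid minus viridis was 0.142 ± 0.0449 with an interval of 0.0467 to 0.237. At base 2 these are 1.10-fold differences each, and at base e 1.14-fold and 1.15-fold. Both comparisons share the hybrid plants. The unadjusted p was 0.00860 against caroliniana, where 2.80% of all probes were below 0.05 without adjustment, and 0.00608 against viridis, where 9.73% were. After adjustment neither passed (adjusted p = 0.9998 against caroliniana and 0.473 against viridis), and 0% of all probes were called in either comparison, with 221 and 767 below an unadjusted p of 0.05. By p-value CWINV ranked 27th of 7880 probes against caroliniana and 92nd against viridis. By size it stood out less, since 11.9% of probes had a larger difference against caroliniana and 20.6% against viridis.

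The difference had the same sign in both treatments. Under drought hybrid minus caroliniana was 0.122 ± 0.0578 and hybrid minus viridis 0.162 ± 0.0585, with adjusted p = 0.986 and 0.350. In well-watered plants hybrid minus caroliniana was 0.147 ± 0.0583 and hybrid minus viridis 0.122 ± 0.0574, with adjusted p = 0.9996 for both. By the limma test the unadjusted p was 0.0136 for hybrid minus viridis under drought, where 13.5% of all probes were below 0.05. It was 0.0229 for hybrid minus caroliniana in well-watered plants, where 3.01% were. Of all probes 0% were called for the hybrid against caroliniana in either treatment and for the hybrid against viridis under drought, with 288, 237 and 1067 below an unadjusted p of 0.05. The hybrid against viridis in well-watered plants called 1 probe (0.0127%), which was not CWINV.

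The hybrid drought plants 1, 2 and 3 had CWINV plant values of 0.0310, 0.281 and 0.197, against 0.0755, -0.0964 and -0.0781 in caroliniana drought plants and -0.113, -0.0504 and 0.0547 in viridis drought plants. The well-watered hybrids had 0.239, 0.0334 and -0.0465, against -0.215, -0.0610 and -0.105 in caroliniana and -0.0210, -0.146 and 0.01998 in viridis. The lowest well-watered hybrid plant (-0.0465) lay just above the highest well-watered caroliniana plant (-0.0610). The other pairs of a hybrid and a parent group of the same treatment overlapped. How many of all probes separate in this way was not counted, so the separation is not read as a trait of CWINV. In order of their means the groups were hybrid drought (0.170 ± 0.127, SD, n = 3), hybrid well-watered (0.0752 ± 0.147), caroliniana drought (-0.0330 ± 0.0944), viridis drought (-0.0361 ± 0.0846), viridis well-watered (-0.0489 ± 0.0863) and caroliniana well-watered (-0.127 ± 0.0794). Each group overlapped the next.

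The CWINV difference kept its sign without any single plant. Leaving out each plant in turn gave 0.121 to 0.160 for hybrid minus caroliniana and 0.116 to 0.169 for hybrid minus viridis. The array marked BAD held the lowest CWINV ratio of all (-0.345), and without it the differences were 0.126 ± 0.0464 and 0.126 ± 0.0494. With viridis drought plant 3 and the well-watered hybrid plant 2 left out they were 0.143 ± 0.0478 and 0.165 ± 0.0605. Without the dye term they were 0.129 ± 0.0646 and 0.140 ± 0.0646. None of these fits brought an adjusted p below 0.05. By the limma test the unadjusted p was 0.0638 for hybrid minus caroliniana without the dye term, and 0.0518 for hybrid minus viridis without viridis drought plant 3. Between the parents CWINV was close to 0, with caroliniana minus viridis at 0.00759 ± 0.0440 over both treatments and an interval of -0.0856 to 0.101 (adjusted p = 0.988). It was 0.0404 ± 0.0571 under drought and -0.0252 ± 0.0576 in well-watered plants (adjusted p = 0.9896 and 0.986), in comparisons with 0% of all probes called and 171 and 186 below an unadjusted p of 0.05.

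**Figure D5:**
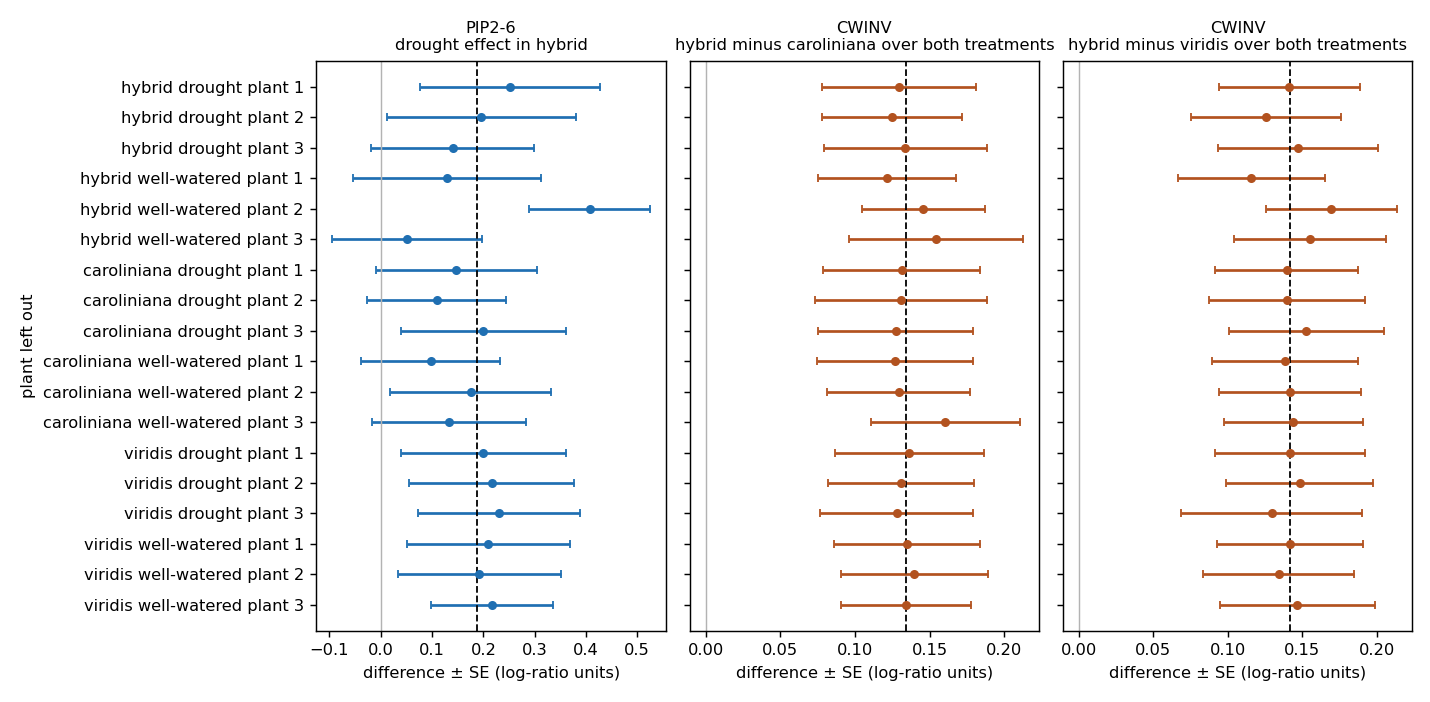
Differences (x axes, log-ratio units, ± SE) with each of the 18 plants left out in turn (y axis), for the PIP2-6 drought effect in the hybrid and for CWINV in the hybrid against each parent; dashed lines are the values with all plants. PIP2-6 runs from 0.0520 to 0.407, depending on the well-watered hybrid plants, while CWINV stays between 0.116 and 0.169.

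The ratios of PIP2-6 and CWINV had r = 0.00808 over the 18 arrays, and their plant values had r = 0.272 over the 18 plants. Among 466 other probes with 1 symbol, those most like PIP2-6 in their ratios were L1 (r = -0.920 over 14 arrays), PK3 (0.916 over 18) and LOC547652 (0.908 over 18). The unnamed probes Gm04690 and Gm01751 reached 0.945 each. These values stand against a median size of r of 0.440 over all probes for PIP2-6. The named probes most like CWINV were PGMPM19 (r = -0.716 over 16 arrays), BZIP112 (-0.698 over 16) and CHR1 (0.676 over 18). BZIP112 is named for the basic leucine zipper transcription factors, and CHR1 is a chalcone reductase of isoflavonoid synthesis. The unnamed probes Gm06504 and Gm00405 were more alike (0.841 over 16 and 0.838 over 18). For CWINV the median size of r over all probes was 0.239. CHR1 had hybrid differences of 0.201 ± 0.0866 against caroliniana and 0.183 ± 0.0867 against viridis, neither called (adjusted p = 0.9998 and 0.512). For BZIP112 they were -0.364 ± 0.108 and -0.253 ± 0.101, and for PGMPM19 -0.163 ± 0.157 and -0.217 ± 0.139, also uncalled. These probes were picked by their likeness to CWINV on the same arrays, so their differences are not separate evidence.

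Few other genes of water and sugar transport were named on the array. No other aquaporin symbol matched. The sugar list of 28 symbols matched 4 further probes of 2 genes, PGM, phosphoglucomutase of starch and sucrose metabolism, and STP1, a symbol that in Arabidopsis names a sugar transport protein. None of the 4 passed in any comparison between groups. The averaged drought effect was -0.0182 ± 0.0525 for PGM and 0.0869 ± 0.118, -0.0923 ± 0.102 and -0.0515 ± 0.0847 for the STP1 probes Gm02278, Gm08947 and Gm13570. Hybrid minus caroliniana was -0.0646 ± 0.0569 for PGM and negative for all STP1 probes (-0.134 to -0.0158). Hybrid minus viridis was 0.0150 ± 0.0569 for PGM, 0.178 ± 0.121 for STP1 probe Gm08947, and -0.105 ± 0.128 and -0.127 ± 0.0919 for Gm02278 and Gm13570. The signs of these uncalled differences thus varied with the parent and, for STP1, with the probe. Differences between probes were not tested. A further pair of genes was looked up after the symbols had been seen: MST1 had no value on any array, and SNRK1 (Gm14637, on 16 arrays) passed in no comparison. For SNRK1 the averaged drought effect was 0.0380 ± 0.128, hybrid minus caroliniana 0.0441 ± 0.153 and hybrid minus viridis -0.223 ± 0.145.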

How the data were processed

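The 18 two-colour arrays compared leaf RNA of 18 plants. Per the labels' protocols, amplified RNA was reverse transcribed and labelled with both dyes. As deposited, values are log ratios of unstated base and direction. They were tested as given, and folds at base 2 hold only if the deposited ratios are log2. Scanner, background correction and normalisation are not given in the sources used here. Groups and plants were taken from the plant codes in the titles, of which the second was the Cy5 plant by the channel labels. Of 9600 probes, 8176 had values and 7880 had them on at least 14 arrays and were tested. Symbols came from the annotation table for the probes (552 entries, 546 with 1 symbol, 6 with several, 9048 probes with none). The members and lists were chosen with earlier results of these data known.

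A generalised least squares model was used per probe, holding terms for the 6 groups, an intercept for the dye and a random plant effect, with 1 variance ratio over all probes (0.25, restricted maximum likelihood). Tests were limma's moderated tests (prior df 3.95, residual df 12), two-sided, Benjamini-Hochberg adjusted per comparison, in R 4.3.3 with limma 3.58.1 and MASS 7.3.60.0.1. The fit was run on simulated data with known effects. These had independent errors and no array-wide component, unlike the arrays here, so they do not test the fit under such a component. Figures used matplotlib 3.10.9 in Python 3.11.15. The named genes were both members, list members matched by symbol (no gene titles were used here), and the 3 named probes with the largest size of r over at least 14 arrays. Plants sharing a number did not deviate together (45 pairs, median r = -0.102, from -0.696 to 0.617), so numbers were not treated as pairs. Alternatives were the arrays as independent, the array marked BAD left out, median centring, equal scaling, complete probes, no filter, a replicate block, no dye term, gene averages, plants left out, and a residual component as covariate.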

Additional observations from a re-analysis of the deposited data

How the results depend on the processing

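No comparison between groups was called for either gene with all plants, and among the 10 alternatives other than single plants left out and the covariate chosen after seeing the data a call appeared only for the PIP2-6 drought effect in the hybrid, at 0.464 with viridis drought plant 3 and the well-watered hybrid plant 2 left out. The sign of PIP2-6 changed for hybrid minus caroliniana over both treatments (-0.0153 with arrays as independent and without a dye term, -0.0287 without both plants, -0.0118 with the residual component), for the averaged drought effect (0.00472 with median centring, 0.0592 without both plants) and for hybrid minus viridis well-watered (0.00446 with equal scaling). That of CWINV changed for caroliniana minus viridis over both treatments (-0.0142 with equal scaling). The cause was not tested. With the replicate block for plant number, CWINV hybrid minus viridis was 0.142 and PIP2-6 in the hybrid under drought 0.184, and no call changed.

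With single plants left out, PIP2-6 ran from -0.117 to 0.0583 for the averaged drought effect, 0.0520 to 0.407 for drought in the hybrid (called without hybrid well-watered plant 2), -0.317 to -0.0573 for drought in caroliniana, -0.162 to -0.00952 for drought in viridis, 0.0799 to 0.173 for the dye offset, -0.00432 to 0.155 for caroliniana minus viridis under drought, -0.0746 to 0.184 for hybrid minus caroliniana over both treatments and -0.331 to 0.129 in well-watered plants, and -0.0222 to 0.211 for hybrid minus viridis over both treatments and -0.289 to 0.139 in well-watered plants. CWINV ran from -0.0102 to 0.0360 for drought in viridis, -0.0164 to 0.0255 for caroliniana minus viridis over both treatments and -0.0653 to 7.76e-05 in well-watered plants. Over all probes, the counts of calls ran from 100 to 366 for the averaged drought effect (153 with all plants), 4 to 107 in caroliniana (63), 61 to 1150 in the hybrid (163) and 10 to 87 in viridis (56), and under the other alternatives reached 302, 109, 1126 and 107. Among the fits without a single plant, the highest counts came without hybrid well-watered plant 2, and the lowest without viridis well-watered plant 2 for the average, and without caroliniana drought plant 2, hybrid well-watered plant 1 or, in viridis, drought plant 2 within morphotypes. Without hybrid well-watered plant 2 the test of a difference between the drought effects called 139 probes, against 0. Hybrid minus viridis under drought, with 0 calls, had 374 with the residual component. The dye offset was called for 794 of the 5371 complete probes when only these were fitted, against 2354 of all 7880 tested probes. Signal over background was not analysed here.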
